A study of Mus musculus with 9 samples.

Results

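The p53 response genes described here are 10 genes widely known as transcriptional targets of p53: Cdkn1a, Mdm2, Perp, Fas, Phlda3, Ccng1, Bax, Gdf15, Polk and Aen. A gene was taken where the array's table of names gave that 1 symbol for a transcript cluster, the array's unit of measurement, and the brightest cluster was used. By that rule 8 of the 10 were found, of 30142 named genes in all, and all 8 passed the filter on dim genes, which 16403 genes passed. Bax and Gdf15 were not analysed here. RNA came from the luminal lining of single mouse thoracic aortas, 1 aorta per array, on 9 whole-transcriptome arrays. ACDiEKO mice (5 arrays) had the genotype Cdh5-CreERT2(+) with Mef2a f/f, Mef2c f/f and Mef2d f/f, and the recombinase acts in cells that use the endothelial Cdh5 promoter. Controls (4 arrays) were littermates with the same 3 floxed genes and no recombinase, so an effect of the recombinase itself cannot be told apart from loss of the MEF2 factors. All mice were female and received 5 daily doses of tamoxifen at 10 weeks of age. The series text puts the harvest at day 7 after the first dose and the sample protocols put it at day 14.

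p53 is a transcription factor that is held at a low level by the ubiquitin ligase MDM2 and accumulates after DNA damage and other stress. It then switches on genes for cell cycle arrest, cell death and DNA repair, together with Mdm2 itself, which closes a feedback loop. In endothelium the pathway is best known for arrest and death of vessel-lining cells after irradiation or oxidative injury.

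Promoter windows of the members, which run from 250 bases before to 50 after an annotated start, are shown because these genes are defined as p53 targets while MEF2 proteins are the factors removed. RefSeq (GRCm38.p6) gave windows for 7 of the 8 measured members, 10 windows in all. A p53 site of adjoining half-sites, with at most 1 mismatch (an allowance chosen after the windows were seen), lay in the upstream window of Cdkn1a and in the window of Ccng1, and in 0.0883% of all 32851 windows of mouse genes. Single p53 half-sites without a mismatch, present in 8.36% of all windows, were also found in the Mdm2, Aen and upstream Cdkn1a windows, in the Ccng1 window within its full site, and in 1 of the Polk windows. A MEF2 site, present in 3.19% of all windows on either strand, was found in none of the 10. In the lines below, capitals mark the p53 site of Cdkn1a (-51 to -32) and of Ccng1 (-195 to -176) and the half-site of Aen (10 to 19), with the start base counted as 0. A further half-site of Cdkn1a, at -73 to -64, is left in lower case. The other 3 windows are of Phlda3, Polk and Fas, the other members that passed the test and have a window. They hold no p53 or MEF2 match, which says only that these letters are not in the window. The half-site of Polk lies in its other window, which is not shown.
Cdkn1a, upstream start (chr17:29090729-29091028, plus strand): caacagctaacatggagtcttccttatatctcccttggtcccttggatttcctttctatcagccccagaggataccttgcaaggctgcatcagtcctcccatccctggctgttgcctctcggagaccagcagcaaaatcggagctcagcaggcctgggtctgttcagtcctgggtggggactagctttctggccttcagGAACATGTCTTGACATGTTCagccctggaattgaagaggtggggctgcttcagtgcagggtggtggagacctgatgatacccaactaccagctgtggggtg
Ccng1, start (chr11:40755237-40755536, minus strand): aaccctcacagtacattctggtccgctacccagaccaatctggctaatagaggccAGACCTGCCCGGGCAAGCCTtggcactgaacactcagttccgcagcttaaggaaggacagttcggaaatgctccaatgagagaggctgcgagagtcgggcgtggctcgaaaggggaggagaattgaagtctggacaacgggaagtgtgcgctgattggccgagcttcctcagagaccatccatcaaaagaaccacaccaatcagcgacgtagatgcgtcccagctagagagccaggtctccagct
Aen, first start (chr7:78895677-78895976, plus strand): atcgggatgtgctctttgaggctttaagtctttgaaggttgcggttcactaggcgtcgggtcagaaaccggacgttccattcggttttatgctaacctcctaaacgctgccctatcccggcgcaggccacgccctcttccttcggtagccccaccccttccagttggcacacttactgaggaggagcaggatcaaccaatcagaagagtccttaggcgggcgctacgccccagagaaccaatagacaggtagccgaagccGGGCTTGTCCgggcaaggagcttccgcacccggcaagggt
Phlda3, start (chr1:135765835-135766134, plus strand): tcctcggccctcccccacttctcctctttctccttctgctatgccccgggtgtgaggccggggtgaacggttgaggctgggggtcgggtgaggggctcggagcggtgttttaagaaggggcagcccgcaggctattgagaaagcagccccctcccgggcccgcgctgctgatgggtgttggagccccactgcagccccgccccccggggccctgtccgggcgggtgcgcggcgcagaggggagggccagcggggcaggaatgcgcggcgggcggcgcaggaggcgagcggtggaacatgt
Polk, first start (chr13:96542530-96542829, minus strand): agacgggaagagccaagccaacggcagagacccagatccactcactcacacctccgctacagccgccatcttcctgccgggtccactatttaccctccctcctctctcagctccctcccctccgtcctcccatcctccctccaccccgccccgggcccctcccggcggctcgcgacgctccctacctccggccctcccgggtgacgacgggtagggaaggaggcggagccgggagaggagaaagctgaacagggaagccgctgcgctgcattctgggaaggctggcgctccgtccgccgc
Fas, start (chr19:34290409-34290708, plus strand): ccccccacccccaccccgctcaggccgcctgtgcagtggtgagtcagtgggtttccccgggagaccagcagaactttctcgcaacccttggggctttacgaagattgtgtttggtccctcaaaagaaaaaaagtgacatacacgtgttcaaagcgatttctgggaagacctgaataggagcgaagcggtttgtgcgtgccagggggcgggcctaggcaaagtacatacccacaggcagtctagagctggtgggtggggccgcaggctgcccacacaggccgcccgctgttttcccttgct

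Values are the deposited log2 values, and differences are in log2 units of those values, ACDiEKO minus control. ACDiEKO replicates 1 and 2 stood apart from the rest in being nearly identical. Over bright clusters their values differed with a robust SD of 0.0707, while the other 15 pairs of arrays within a genotype gave 0.268 to 0.401. They were averaged, so 4 ACDiEKO samples were set against 4 control samples. Array medians were 6.13 to 6.15 in ACDiEKO and 6.17 to 6.23 in control, without overlap. Endothelial markers were bright in both groups, with a mean over 11 markers of 12.31 to 12.73 in ACDiEKO and 12.23 to 12.51 in control. Of the 11, Emcn (3.72) and Kdr (0.96) rose and Tek (-1.92) and Pecam1 (-0.37) fell. The floxed genes differed by 0.12 (Mef2a), 0.06 (Mef2c) and 0.23 (Mef2d), with adjusted p = 0.493, 0.663 and 0.144 in limma with no filter on dim genes. These clusters cover whole transcripts and do not check the genotype labels.

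The p53 response genes did not move in 1 direction in ACDiEKO aortas. Perp, Polk and Phlda3 fell, Fas and Aen rose, and Cdkn1a, Ccng1 and Mdm2 did not pass the test. In limma with Benjamini-Hochberg adjustment over all 16403 tested genes, 2 of the 8 measured members rose and 3 fell. Of all tested genes, 16.3% passed in either direction, 8.92% higher in ACDiEKO and 7.33% lower. After each array was centred on its median, the calls over all genes were 1851 higher and 960 lower, in place of 1463 and 1203, and all 8 members kept their direction and call, as they did after quantile normalization (1970 higher and 1038 lower). With no filter on dim genes, where 6.54% of all 30142 genes passed, Perp and Polk fell and no member rose. The median difference of the 8 members was -0.47, against -0.03 over all tested genes, and their median size was 0.62, against 0.19. That median difference lies between Ccng1 (-0.39) and Cdkn1a (-0.55), neither of which passed. The members were also brighter than most tested genes. A stricter filter at 8.417 kept 7 of the 8 members, against 8930 of all 16403 tested genes. The sample ranges of ACDiEKO and control did not overlap in 4 of the 8 (Perp, Polk, Phlda3 and Aen), a separation found in 23.0% of tested genes. In tissue RNA, fewer cells of a type and less RNA per cell cannot be told apart.

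**Figure D1:**
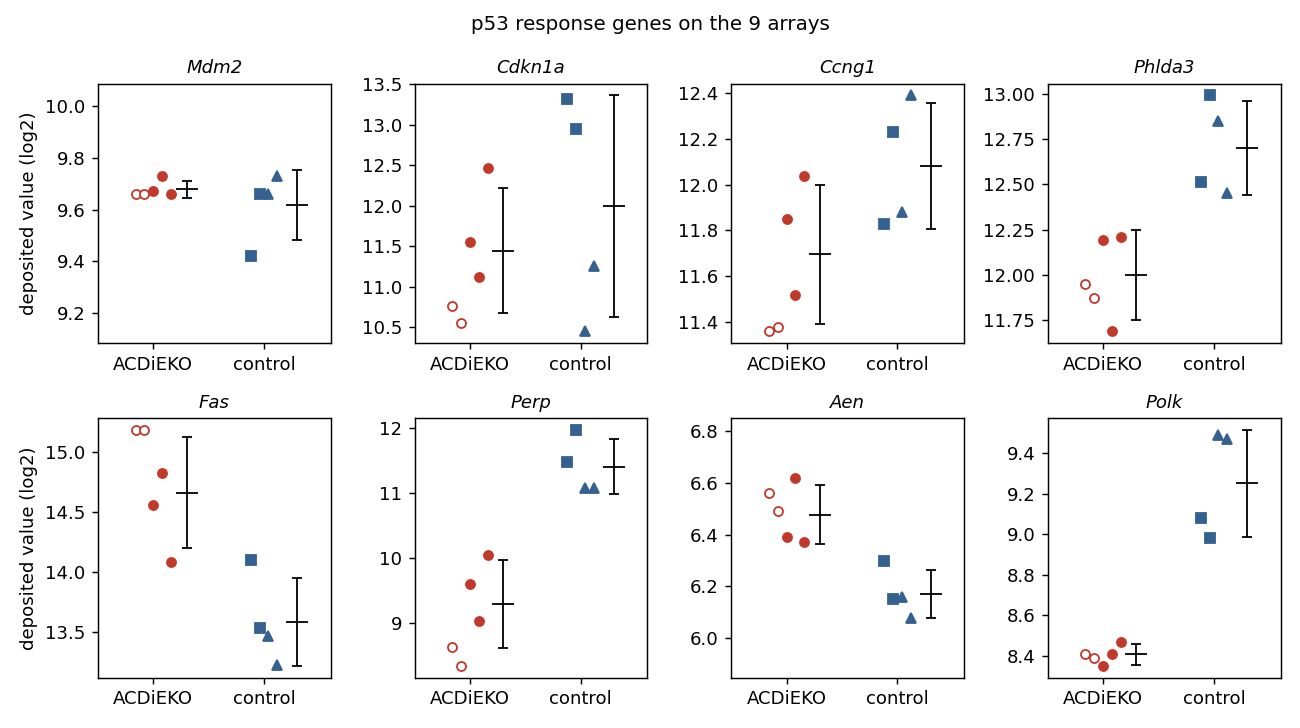
Deposited log2 values of the 8 measured p53 response genes on each array, ACDiEKO (red circles, left) and control (blue, right), with a separate scale in each panel. Open circles are the near-identical ACDiEKO replicates 1 and 2, triangles are the control arrays whose animal numbers lie apart from all others, and bars give mean ± SD over 4 samples per group. All ACDiEKO values of Perp, Polk and Phlda3 lie below all control values, while the controls of Cdkn1a fall into a high and a low pair.

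Mdm2, the ubiquitin ligase that degrades p53 and is itself induced by it, was nearly flat. It measured 9.66, 9.66, 9.67, 9.73 and 9.66 in ACDiEKO replicates 1 to 5, against 9.42, 9.66, 9.66 and 9.73 in control replicates 1 to 4. The ACDiEKO values lay inside the control range. ACDiEKO replicates 1, 2 and 5 and control replicates 2 and 3 held the same value to 4 decimals (9.6584), so the small spread rests in part on tied values. The difference was 0.06 (95% interval -0.12 to 0.24, limma, adjusted p = 0.627).

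Cdkn1a encodes p21, the inhibitor of cyclin-dependent kinases through which p53 arrests the cycle. It measured 10.76, 10.55, 11.55, 11.12 and 12.46 in ACDiEKO replicates 1 to 5, against 13.32, 12.95, 10.45 and 11.25 in control replicates 1 to 4. The groups overlapped, and the controls split into a high pair and a low pair. The difference was -0.55 (95% interval -2.10 to 1.01, limma, adjusted p = 0.616), an interval wide enough to hold both a fall of 2 and a rise of 1.

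The split follows the animal numbers in the titles. Control replicates 1 and 2 carry numbers that run on from those of the ACDiEKO mice, and control replicates 3 and 4 carry lower numbers that lie apart. Cdkn1a averaged 13.13 in the first pair and 10.85 in the second, a gap of 2.29 within the control group. Within the run of numbers that holds both genotypes, Cdkn1a averaged 11.44 in ACDiEKO (n = 4) and 13.13 in control (n = 2), a difference of -1.69 (95% interval -2.89 to -0.49, limma, adjusted p = 0.0992). With the run as a term in the fit of all samples, adjusted p was 0.0714. What the numbers stand for (litter, day or cage) is not given in the sources used here, and their part in the result was not tested. None of the other 7 members had so wide a gap between the control pairs, which was 0.65 for Perp, 0.46 for Fas, -0.45 for Polk and between -0.15 and 0.11 for the rest.

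Over the 8 samples, with each gene centred on its mean, the 3 tested genes whose profiles lay closest to Cdkn1a among 11270 protein-coding genes were ND3, ND2 and Mt1. ND3 and ND2 are mitochondrially encoded subunits of complex I, and Mt1 is the metal-binding protein metallothionein 1. Their mean absolute differences from the Cdkn1a profile were 0.28, 0.38 and 0.40 log2 units. None of the 3 passed the test between the genotypes, with differences of -0.24, -0.84 and -0.61. That outcome follows largely from their being chosen by likeness to Cdkn1a, which did not pass, over the same samples.

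Ccng1 encodes cyclin G1, a p53-induced protein that brings a phosphatase to MDM2. It measured 11.36, 11.38, 11.85, 11.52 and 12.04 in ACDiEKO replicates 1 to 5, against 11.83, 12.23, 11.88 and 12.39 in control replicates 1 to 4. ACDiEKO replicates 1, 2 and 4 lay below every control array, and the other two lay among the controls. The difference was -0.39 (95% interval -0.81 to 0.04, limma, adjusted p = 0.188).

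Phlda3 encodes a small pleckstrin homology protein that competes with the kinase AKT for membrane lipids. It measured 11.95, 11.87, 12.19, 11.69 and 12.21 in ACDiEKO replicates 1 to 5, against 12.51, 12.99, 12.85 and 12.45 in control replicates 1 to 4. Every ACDiEKO array was below every control array. The SD was 0.25 in ACDiEKO and 0.26 in control (n = 4 each), and the difference was -0.70 (95% interval -1.08 to -0.33, limma, adjusted p = 0.0238). The call was lost without control replicate 2 or 3, ACDiEKO replicate 4, or ACDiEKO replicates 1 and 2 together (adjusted p = 0.0544, 0.0633, 0.0597 and 0.0645). Within the run of animal numbers that holds both genotypes the difference was -0.75 (adjusted p = 0.0891). None of 8 tested genes in a list of PHLDA relatives, AKT kinases, AKT regulators and the mitochondrial kinase Pdk1 passed in limma. The 3 of smallest p were the AKT phosphatase Phlpp1 (0.12), Pdk1 (-0.11) and the AKT-activating kinase Pdpk1 (-0.08), all above an unadjusted limma p of 0.05.

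Fas, the receptor for Fas ligand and a trigger of caspase-dependent death, was the member with the largest rise. It measured 15.18, 15.18, 14.56, 14.82 and 14.08 in ACDiEKO replicates 1 to 5, against 14.10, 13.53, 13.47 and 13.23 in control replicates 1 to 4. ACDiEKO replicates 1 to 4 exceeded all controls, and ACDiEKO replicate 5 lay just under control replicate 1. Fas averaged 14.66 ± 0.46 in ACDiEKO and 13.58 ± 0.36 in control (SD, n = 4 each), a difference of 1.08 (95% interval 0.48 to 1.67, limma, adjusted p = 0.0264). The call depended on single samples: it was lost on leaving out control replicate 2, 3 or 4, ACDiEKO replicate 3 or 4, or ACDiEKO replicates 1 and 2 together, with adjusted p between 0.0516 and 0.0768. Within the run of animal numbers that holds both genotypes the difference was 0.85 (adjusted p = 0.176).

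The array annotation gives the symbol Fas to a second, dimmer cluster. The identifier of the cluster used begins TC19, and RefSeq places Fas on chromosome 19. The identifier of the dimmer cluster begins TC17. The dimmer cluster averaged 7.72 ± 0.17 in ACDiEKO and 8.15 ± 0.37 in control (SD, n = 4 each), a difference of -0.43 that runs opposite to the brighter cluster. Averaging both clusters reduced the Fas difference to 0.32 and ended the call (adjusted p = 0.181).

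Perp had the largest change of the members and one of the firmest calls. It encodes a tetraspan membrane protein that acts in p53-dependent death and is also built into desmosomes, the junctions that anchor keratin filaments, and lies at chr10:18845071-18857073 in RefSeq (GRCm38.p6). It measured 8.64, 8.35, 9.60, 9.04 and 10.05 in ACDiEKO replicates 1 to 5, against 11.48, 11.96, 11.08 and 11.07 in control replicates 1 to 4. A gap of about 1 log2 unit separated the highest ACDiEKO array from the lowest control array. Perp averaged 9.30 ± 0.67 in ACDiEKO and 11.40 ± 0.42 in control (SD, n = 4 each), a difference of -2.10 (95% interval -2.90 to -1.31, limma, adjusted p = 0.00625). The call held on leaving out each sample in turn (differences of -2.35 to -1.84, adjusted p up to 0.0237) and within the run of animal numbers that holds both genotypes (-2.43, adjusted p = 0.0350).

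The 3 tested genes with profiles closest to Perp were Sorbs3, Ccm2l and Fmo5, at mean absolute differences of 0.20, 0.24 and 0.25 log2 units over the 8 samples. Sorbs3 encodes the focal adhesion adaptor vinexin, Ccm2l a relative of the cerebral cavernous malformation protein CCM2, and Fmo5 a flavin-containing monooxygenase. Their differences were -1.80, -1.91 and -1.77, a direction that follows from their being chosen by likeness to Perp over the same samples. Of 11 desmosome genes on the array, 4 passed the filter on dim genes. Of these 4, the linker plakoglobin (Jup, -1.36) and the plakophilin Pkp4 (-0.71) fell, the plakophilin Pkp2 (1.14) rose, and 1 did not pass. Of all tested genes, 16.3% passed in either direction. Pkp2 lost its call within the run of animal numbers that holds both genotypes.

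Aen encodes the apoptosis-enhancing nuclease, which p53 induces. It measured 6.56, 6.49, 6.39, 6.62 and 6.37 in ACDiEKO replicates 1 to 5, against 6.30, 6.15, 6.16 and 6.08 in control replicates 1 to 4. All ACDiEKO arrays were above all control arrays, by a small margin. Aen was dim, with 6 of 9 arrays above the filter value of 6.165, 5 of them ACDiEKO, so it passed the filter through the group in which it was higher. The difference was 0.31 (95% interval 0.12 to 0.50, limma, adjusted p = 0.0400). Only leaving out control replicate 1 or ACDiEKO replicate 5 kept the call among the leave-one-out fits, and the others gave adjusted p between 0.0547 and 0.0988. Within the run of animal numbers that holds both genotypes the difference was 0.25 (adjusted p = 0.199). None of 7 tested genes in a list of exonuclease relatives of Aen, other nucleases and the nuclease inhibitor Dffa passed in limma. Of these, Isg20l2 (0.40) alone reached an unadjusted limma p under 0.05 (0.0283).

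Polk, the translesion polymerase kappa, copies DNA past bulky lesions that stop the replicative polymerases. It measured 8.41, 8.39, 8.35, 8.41 and 8.47 in ACDiEKO replicates 1 to 5, against 9.08, 8.98, 9.49 and 9.47 in control replicates 1 to 4. The ACDiEKO arrays were tightly grouped below all controls, and the controls fell into the same pairs as for Cdkn1a, here with replicates 3 and 4 higher. Polk averaged 8.41 ± 0.05 in ACDiEKO and 9.25 ± 0.26 in control (SD, n = 4 each), a difference of -0.84 (95% interval -1.13 to -0.55, limma, adjusted p = 0.0044). The call held on leaving out each sample in turn (adjusted p up to 0.0168) and within the run of animal numbers that holds both genotypes (-0.62, adjusted p = 0.0183).

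Among 13 other tested genes of translesion synthesis, 5 rose and none fell, beside 8.92% of all tested genes that rose. Their median difference was 0.22. The sliding clamp Pcna rose by 1.39, the ubiquitin ligase Rad18, which marks that clamp at stalled forks, by 2.33, and polymerase eta (Polh) by 1.03. Polymerase theta (Polq, 0.74) and the deubiquitinase Usp1 (0.53) also rose. Adjusted p for the 5 lay between 0.000768 and 0.0264 in limma, and the control mean of Polq (5.85) lay below the filter value. Within the run of animal numbers that holds both genotypes, Pcna, Polh and Rad18 passed.

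**Figure D2:**
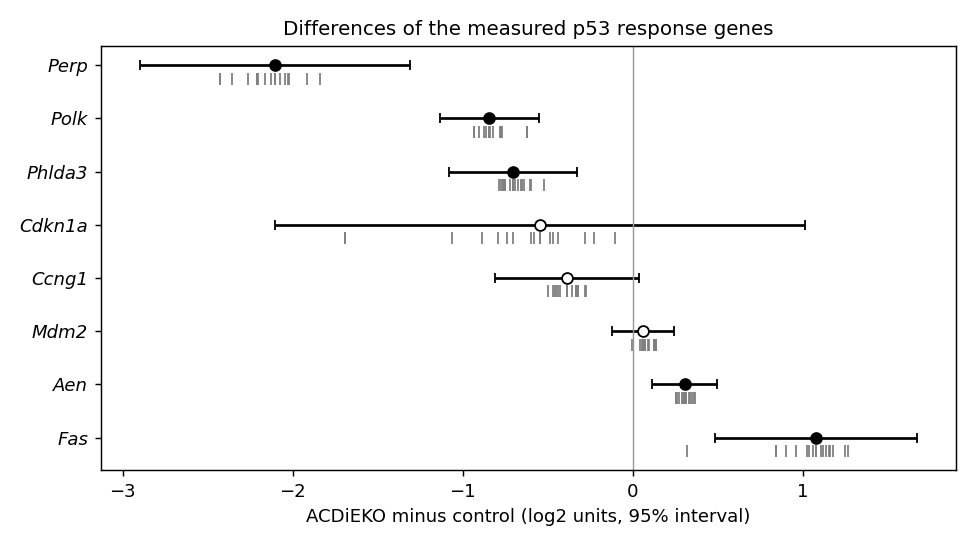
Difference between ACDiEKO and control for each measured member, in log2 units, with the 95% interval from limma (filled circle, past the threshold; open circle, not past it). Grey ticks under each bar are the same difference under the alternative settings. The differences of Perp, Polk and Phlda3 stay below 0 and those of Fas and Aen above 0 under every alternative run, and Cdkn1a has the widest interval, -2.10 to 1.01.

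One ACDiEKO sample lay at the edge of its group in every member. ACDiEKO replicate 5 had the highest value of its group in 5 of the 8 members (Cdkn1a, Perp, Phlda3, Ccng1 and Polk) and the lowest in the other three (Fas, Aen and, within a near-tie, Mdm2). The averaged replicates 1 and 2 had the lowest value in Cdkn1a, Perp and Ccng1 and the highest in Fas. For the members past the threshold, replicate 5 was thus the ACDiEKO sample nearest to the controls each time. Leaving it out therefore has to enlarge these differences, to -2.35 for Perp, -0.77 for Phlda3, -0.86 for Polk, 1.27 for Fas and 0.34 for Aen.

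Markers of other cell types moved beside these values. The mean over 9 leukocyte markers was 9.38 in ACDiEKO replicate 5, against 6.89 to 7.57 in the other ACDiEKO samples and 6.43 to 7.40 in control. No leukocyte marker of 7 tested passed between the genotypes. The mean over 12 smooth muscle markers was 9.57 to 10.53 in ACDiEKO and 8.23 to 9.19 in control, without overlap. Of 11 tested, 8 rose, beside 8.92% of all tested genes, while Myh11 (-0.04) did not pass. Means of adventitial fibroblast (8.14 to 9.07 in ACDiEKO, 8.60 to 9.05 in control), mesothelial (6.55 to 8.60 and 6.19 to 7.24), fat (7.24 to 9.78 and 8.37 to 10.60) and erythrocyte markers (7.93 to 9.16 and 8.15 to 9.39, over 2 markers) overlapped. Of the 7 fibroblast markers tested, Pi16 fell (-2.41, limma, adjusted p = 0.0086) without overlap, and none of the mesothelial, fat or erythrocyte markers passed. Schwann cell markers had no tested gene. The part of these cells in the results on p53 response genes was not tested.

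A wider list of 50 other p53 targets was also mixed, with 10 of 43 tested genes lower, 4 higher and 29 not past the threshold. Over all tested genes 7.33% were lower and 8.92% higher. The median difference of the list was -0.09. Within the run of animal numbers that holds both genotypes, 3 were lower and 1 higher. Of all 16403 tested genes, 493 were lower and 634 higher there, in a fit that rested on fewer samples. Among the falls were Ephx1, the microsomal epoxide hydrolase (-1.51), the heparan sulfate endosulfatase Sulf2 (-1.73), the growth factor Kitl (-1.84), the receptor Notch1 (-0.75) and the excision repair nuclease Ercc5 (-0.37), with adjusted p between 0.000627 and 0.0107 in limma. The other 5 that fell were the mTOR inhibitor Ddit4 (-1.23), the stress sensor Sesn1 (-0.68), the growth factor Tgfa (-0.67), the tetraspanin Cd82 (-0.56) and the metalloreductase Steap3 (-0.51). The 4 that rose, chosen after their values were seen, were the matricellular protein Thbs1 (2.36), the G2 phase protein Gtse1 (0.86), the growth arrest gene Gadd45a (0.57) and the spindle protein Psrc1 (0.37). Gtse1 and Psrc1 lay below the filter value on some control arrays. Several of the listed genes answer to other factors besides p53. The 29 that did not pass ranged from -0.47 for the kinase Plk2 to 1.07 for the death receptor Tnfrsf10b.

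**Figure D3:**
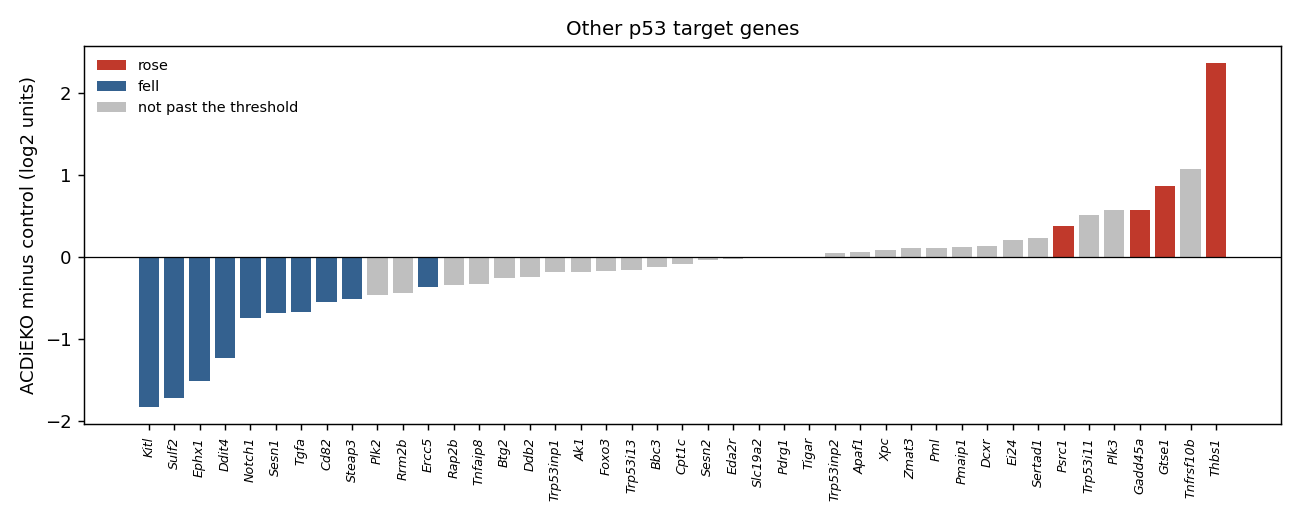
Difference between ACDiEKO and control, in log2 units, for each of the 43 tested genes of the wider p53 target list, ordered by size. Red and blue bars passed the threshold (4 rose and 10 fell) and grey bars did not, and most grey bars are short.

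Among 16 tested regulators of p53, 3 rose and none fell, beside a share of 16.3% called over all tested genes (8.92% higher). The checkpoint kinases Chek1 (1.43) and Chek2 (1.07) and the damage-sensing kinase Atr (0.66) rose (limma, adjusted p = 0.0056, 0.0138 and 0.0231). Mdm4, the MDM2 partner that restrains p53, differed by -0.23 (limma, adjusted p = 0.152). Trp53 itself was not analysed here. In a list on DNA damage signaling that shares genes with this one, 10 of 15 tested genes rose, among them the histone gene H2ax (2.02), Brca1 (1.17), Brca2 (1.38) and Topbp1 (1.19). Brca1 lay below the filter value on all control arrays, so it passed the filter through the ACDiEKO arrays. Without control replicates 3 and 4, 7 of the 15 rose, beside 634 of all 16403 tested genes, and Atr lost its call.

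Genes of cell division, many of which are shut off when p21 is active, rose in ACDiEKO in all 22 cases tested. Their median difference was 2.25, and 8.92% of all tested genes rose. Without control replicates 3 and 4, 18 of the 22 rose, beside 634 of all 16403 tested genes, and Bub1b, Mcm4, Mcm6 and Rrm2 did not pass. The proliferation marker Mki67 rose by 5.68, the topoisomerase Top2a by 4.09, the spindle protein Prc1 by 3.49 and the mitotic cyclins Ccna2 and Ccnb2 by 3.39 and 3.20. Among 7 tested genes in a list of other cyclins and the kinase Gak, the cyclins Ccne2 (2.39) and Ccne1 (1.80) rose. The other 5 did not pass, with Ccnd3 at -0.30. Beside Cdkn1a, 7 CDK inhibitor genes were on the array and 4 passed the filter on dim genes. All 4 passed the test, beside 16.3% of all tested genes. Cdkn1b (p27) fell by 0.52 and Cdkn1c (p57) by 0.39, while the CDK-directed phosphatase Cdkn3 rose by 3.09 and Cdkn2c (p18) by 0.62, with adjusted p between 0.00165 and 0.0486 in limma. Cdkn1b lost its call after median centring, Cdkn1b and Cdkn1c lost theirs after quantile normalization, and Cdkn3 alone passed within the run of animal numbers that holds both genotypes. The control mean of Cdkn2c (5.71) lay below the filter value, so it passed the filter through the ACDiEKO arrays.

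Apoptosis genes related to Fas and Bax were tested in 3 lists, beside a share of 16.3% called over all tested genes. Of 16 tested BCL2 family genes, 3 rose and none fell: the survival gene Bcl2 (1.57) and the death-promoting Bak1 (0.38) and Bik (0.31), with adjusted p between 0.0031 and 0.0186 in limma. Of 11 death receptor genes, the TNF receptor Tnfrsf1a fell by 0.37, and the ligand Tnfsf10 (-1.24) and the Fas-inhibitory Faim (0.72) did not pass. Of 13 caspase and apoptosome genes, the caspase inhibitor Birc3 rose by 0.62, the inflammatory caspase Casp1 fell by 0.73, and Birc2 (0.37) did not pass. After median centring Faim, Birc2 and the BCL2 relative Bok passed as well. Within the run of animal numbers that holds both genotypes Faim rose past the threshold. No caspase or apoptosome gene passed there, nor did Bik or Tnfrsf1a.

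Gdf15, which was not analysed here, is also a target of the integrated stress response. Of 15 tested genes of that response 4 rose and none fell, beside 8.92% of all tested genes that rose. The 4 were the one-carbon enzymes Mthfd2 (1.16) and Shmt2 (0.72) and the transcription factors Atf4 (0.51) and Atf3 (0.68). The control mean of Mthfd2 (6.10) lay below the filter value. None of the 4 passed within the run of animal numbers that holds both genotypes. None of 3 tested growth factor relatives of Gdf15 passed in limma, and of these Inhbb (0.56) alone had an unadjusted p under 0.05 (0.0309), with Inhba at 0.22 and Gdf6 at 0.22. Of 5 tested senescence-associated genes, the chromatin protein Hmgb2 (2.24) and the lamin Lmnb1 (1.33) rose and Igfbp3 (1.10) did not pass, though it did after either other scaling. Without control replicates 3 and 4, Hmgb2 alone passed. Hmgb2 and Lmnb1 are known to be lost in senescent cells, and senescence itself was not tested.

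**Figure D4:**
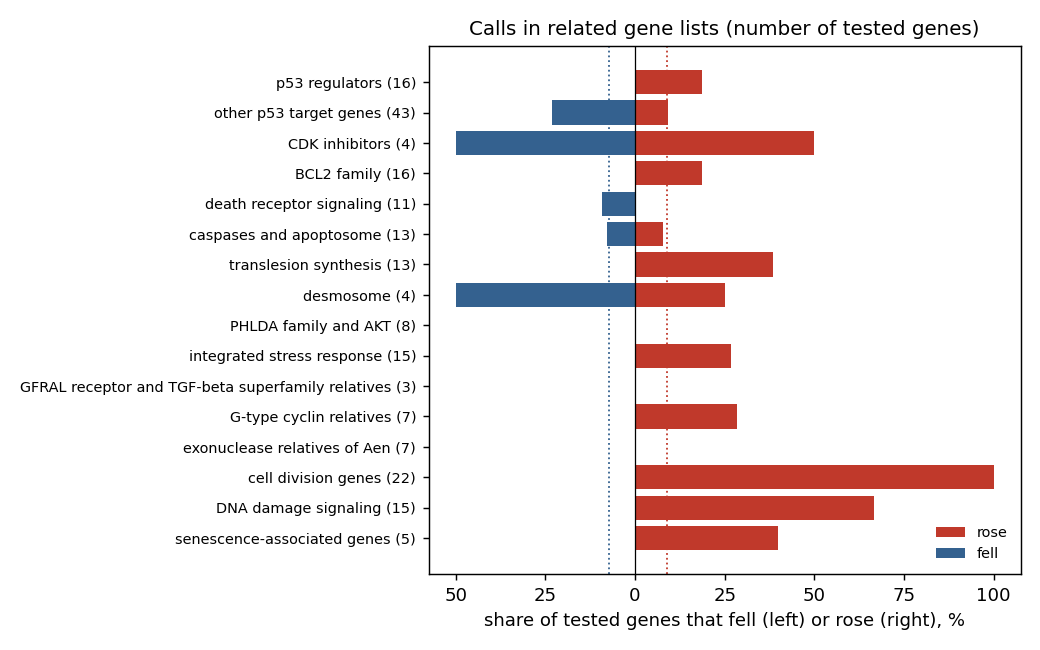
Share of tested genes in each related list that rose (red, right) or fell (blue, left) in ACDiEKO, in percent of the tested genes, whose number stands in brackets. Dotted lines mark the shares over all tested genes, 8.92% higher and 7.33% lower. All 22 cell division genes lie on the right, and the wider p53 target list has 10 falls against 4 rises.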

How the data were processed

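Gene expression was measured on 9 arrays, 5 ACDiEKO and 4 control, from 5 ng of RNA each. The authors deposited log2 values made with RMA, per the submitters' processing notes; no version is given. They run from 2.58 to 19.34, beyond the 16 log2 units of a scanner, so a further scaling is likely and differences are not given as folds. Build and annotation are not given in the sources used here. The number of arrays limits the precision.

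Array controls were left out, 827 symbols were updated through gene IDs, and genes with at least 4 arrays above the median of all values (6.165) were tested with limma 3.58.1 in R 4.3.3 (lmFit, eBayes, two-sided, Benjamini-Hochberg, threshold 0.05), a step tested on simulated data. The second control array numbered 3 is called control replicate 4. Members and lists were chosen with earlier results of these data known. The text names all members, Mef2a, Mef2c, Mef2d, Mdm4, the 3 genes of smallest p per list (up to 5 where more passed) and the 3 nearest profiles to Perp and Cdkn1a; genes named beyond this rule (the rest of the wider p53 target list, cell markers, Bok and cell division genes that lost calls) were chosen after their values were seen. Alternatives were other filters, scalings, cluster averaging, variance models, array weights, all 9 arrays, a replicate block, the runs of animal numbers and leaving out each sample.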

Additional observations from a re-analysis of the deposited data

How the results depend on the processing

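Over all tested genes, 2666 passed. The count was 1680 to 2465 on leaving out 1 sample (lowest without ACDiEKO replicate 4), 1127 without control replicates 3 and 4 (animal numbers apart from the rest) and 1692 with the run of numbers as a term. Members that rose numbered 0 under both of these run settings, 0 with no filter on dim genes, 1 with the stricter filter (which left Aen untested), 1 with a gene's clusters averaged, and 0 to 2 on leaving out 1 sample. Where none rose, limma gave 5 or 6 members an unadjusted p under 0.05, a count that includes members that fell. Over all genes that count was 6722 of 30142 with no filter on dim genes. In the other settings where none rose it was 4168 to 4933 of 16403. Members that fell numbered 2 to 3 on leaving out 1 sample. Other p53 targets that rose or fell numbered 2 to 4 and 7 to 10 on leaving out 1 sample, 1 and 3 without control replicates 3 and 4, 1 and 4 with the run as a term, and 1 rose under the stricter filter. The difference of Mdm2 was -0.003 to 0.10 on leaving out 1 sample, below 0 without control replicate 1. Cdkn1a ranged from -1.69 to -0.10 over its 19 alternatives and passed in none.

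Same-numbered arrays did not deviate together (correlations of -0.0049, -0.145, 0.0353 and 0.0413). Differently numbered arrays were not set beside them, so these values cannot exclude that the numbers in the titles pair the arrays. With the number as a replicate block (the averaged array in block 1), 495 genes passed. Of the members 1 rose (Fas) and 0 fell, and of the other p53 targets 1 rose and 2 fell. In limma 5 members, and 3532 of all 16403 tested genes, had an unadjusted p under 0.05 with this block. Numbers held by 1 genotype alone add nothing to the comparison in that fit, so it rested on fewer samples. The cause of these shifts was not tested.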
